A study of Homo sapiens with 8 samples.

Results

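The transcription-coupled repair genes examined were ERCC6, ERCC8, UVSSA, ELOF1, USP7, XAB2, POLR2A and TCEA1, which are 8 of 19970 protein-coding genes of the GENCODE release 44 annotation (human genome build hg38). Their members in the data were all distinct accessible regions that overlapped the annotated span of a gene extended by 5 kb on each side. There were 348 such regions out of 1440417 in the 8 peak lists, and they joined into 146 sites out of 548046, a site being a stretch covered by overlapping regions of any list. The assay was ATAC-seq, which reads out open chromatin as the places where the Tn5 transposase could cut the DNA and attach adapters. The cells were U2OS, a human osteosarcoma line, either wild-type (WT) or carrying CRISPR-Cas9 deletions in the gene of the histone methyltransferase ASH1L (ASH1L-/-), grown from isolated colonies. Each genotype was left unchallenged (no UV) or was irradiated with UV-C (20 J/m2) and taken 3 h later, with 2 libraries labelled as biological replicates in each of the 4 groups. The lists hold no reads, so the ASH1L deletion itself was not checked here.

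Transcription-coupled repair removes lesions that stop RNA polymerase II on the transcribed strand. The translocase CSB, product of ERCC6, binds the stalled polymerase and brings in CSA, product of ERCC8, which directs a cullin-RING ubiquitin ligase. The elongation factor ELOF1 and the scaffold protein UVSSA then promote ubiquitylation of the polymerase and the arrival of TFIIH, while USP7 protects CSB from degradation. XAB2 binds XPA and also acts in splicing, POLR2A is the largest polymerase subunit, and TCEA1 (TFIIS) lets a backtracked polymerase resume.

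All 8 genes had a promoter site in all 8 lists. It was defined as the site within 1 kb of the canonical transcription start, the strongest by rank if several. Weaker sites within 1 kb of that start, at ERCC6, UVSSA and USP7, were counted as internal. By rank, no promoter site passed the test for a difference after UV or without ASH1L. On a scale of pileup over the genome mean the ERCC8 promoter passed for UV. On that scale 17.2% of all sites and 5.45% of protein-coding promoters were called higher. Inside the genes, an intronic site of TCEA1 and an intronic site of UVSSA were listed in all 4 libraries post UV and in no unchallenged library, which is 1.37% of the 146 sites against 0.686% of all sites. A site at an internal start of USP7 ranked higher in all 4 libraries post UV than in any unchallenged library, as did 5.99% of the sites in all 8 lists.

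To show the sequence at the promoters, 100 bases are printed for 7 of the genes, from build hg38, 5′ to 3′ on the strand of the gene. Each stretch is the nearest one upstream of the canonical start that touches no annotated exon. All lie within the promoter site except that of USP7, most of which lies between the site and the start. Capitals mark the CCAAT box of NF-Y and the GGGCGG box of the SP1 class, each read on both strands, and no 2 matches overlap.
ERCC6 (chr10:49539122-49539221, minus strand): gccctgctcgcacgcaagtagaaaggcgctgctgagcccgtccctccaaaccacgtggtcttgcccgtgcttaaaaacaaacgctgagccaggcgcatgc
ERCC8 (chr5:60945074-60945173, minus strand): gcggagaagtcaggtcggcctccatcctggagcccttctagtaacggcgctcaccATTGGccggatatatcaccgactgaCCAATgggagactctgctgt
UVSSA (chr4:1346959-1347058, plus strand): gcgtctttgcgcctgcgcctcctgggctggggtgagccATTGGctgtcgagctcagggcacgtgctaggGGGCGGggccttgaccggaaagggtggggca
ELOF1 (chr19:11559231-11559330, minus strand): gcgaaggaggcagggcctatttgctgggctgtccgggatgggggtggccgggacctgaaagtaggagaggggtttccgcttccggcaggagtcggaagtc
USP7 (chr16:8963907-8964006, minus strand): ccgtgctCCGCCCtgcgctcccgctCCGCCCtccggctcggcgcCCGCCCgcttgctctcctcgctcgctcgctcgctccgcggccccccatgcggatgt
XAB2 (chr19:7629546-7629645, minus strand): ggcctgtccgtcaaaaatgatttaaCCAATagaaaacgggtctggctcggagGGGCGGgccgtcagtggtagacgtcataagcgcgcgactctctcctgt
POLR2A (chr17:7484266-7484365, plus strand): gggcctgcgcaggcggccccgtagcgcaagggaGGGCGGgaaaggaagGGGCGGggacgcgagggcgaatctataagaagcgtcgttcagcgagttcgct
The CCAAT box was found in the ERCC8, UVSSA and XAB2 stretches, and it occurred in 20.7% of the 17621 protein-coding promoters for which such a stretch of 100 bases was found. The GGGCGG box was found in the UVSSA, USP7, XAB2 and POLR2A stretches and also in that of TCEA1, against 42.5% of those promoters. Neither was found in the ERCC6 and ELOF1 stretches. The motifs of the ETS class (CCGGAAGT), CRE (TGACGTCA), NRF1, YY1 (AAGATGGCG) and AP-1 (TGANTCA) were also searched and were found in none of the 8 stretches.

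Of the 3 sites inside genes named above, those of USP7 and UVSSA are shown by 101 bases centred on the summit, the point of highest pileup, on the strand of the gene, neither of which touches an annotated exon. The TCEA1 site is not printed.
USP7 internal site (chr16:8936461-8936561, minus strand): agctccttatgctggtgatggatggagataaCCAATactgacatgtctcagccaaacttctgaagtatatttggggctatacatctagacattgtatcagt
UVSSA intronic site (chr4:1360753-1360853, plus strand): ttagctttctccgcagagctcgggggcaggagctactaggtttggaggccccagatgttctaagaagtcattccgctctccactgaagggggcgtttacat
The USP7 stretch holds a CCAAT box, found in 12.8% of 45190 windows of that length at sites in all 8 lists that, unlike this site, lay over 1 kb from every annotated start of a protein-coding gene. None of the 7 motifs was found in the UVSSA stretch.

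The lists differed in depth and length. Between 158198 and 220783 regions were listed per library, and the mean pileup of reads over the genome, a relative measure of depth, was between 1.39 and 2.10 in 3 unchallenged libraries, 5.87 in replicate 1 of the unchallenged ASH1L-/- cells, and between 2.45 and 2.81 in the 4 libraries post UV. Fold enrichments were therefore compared as percentiles, the rank of a region among all regions of its list with 100 as the highest. A percentile still depends on how many weak regions its list holds, so rank differences can include differences in list length. Of the 146 sites, 15 had a region in all 8 lists, which is 10.3% against 11% of all sites, and 89 were in a single list, which is 61% against 60.5% of all sites. The sites comprised 8 promoters, 123 internal sites, 14 sites in the flanks and 1 promoter of another gene. Only 6 internal sites and 1 flanking site were in all 8 lists, and the median over sites of the mean percentile was 93.7 for promoters, 26.6 for internal sites and 30.9 for flanking sites. Since the promoter site was the strongest one near the start, the definition set part of this contrast in advance.

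**Figure D1:**
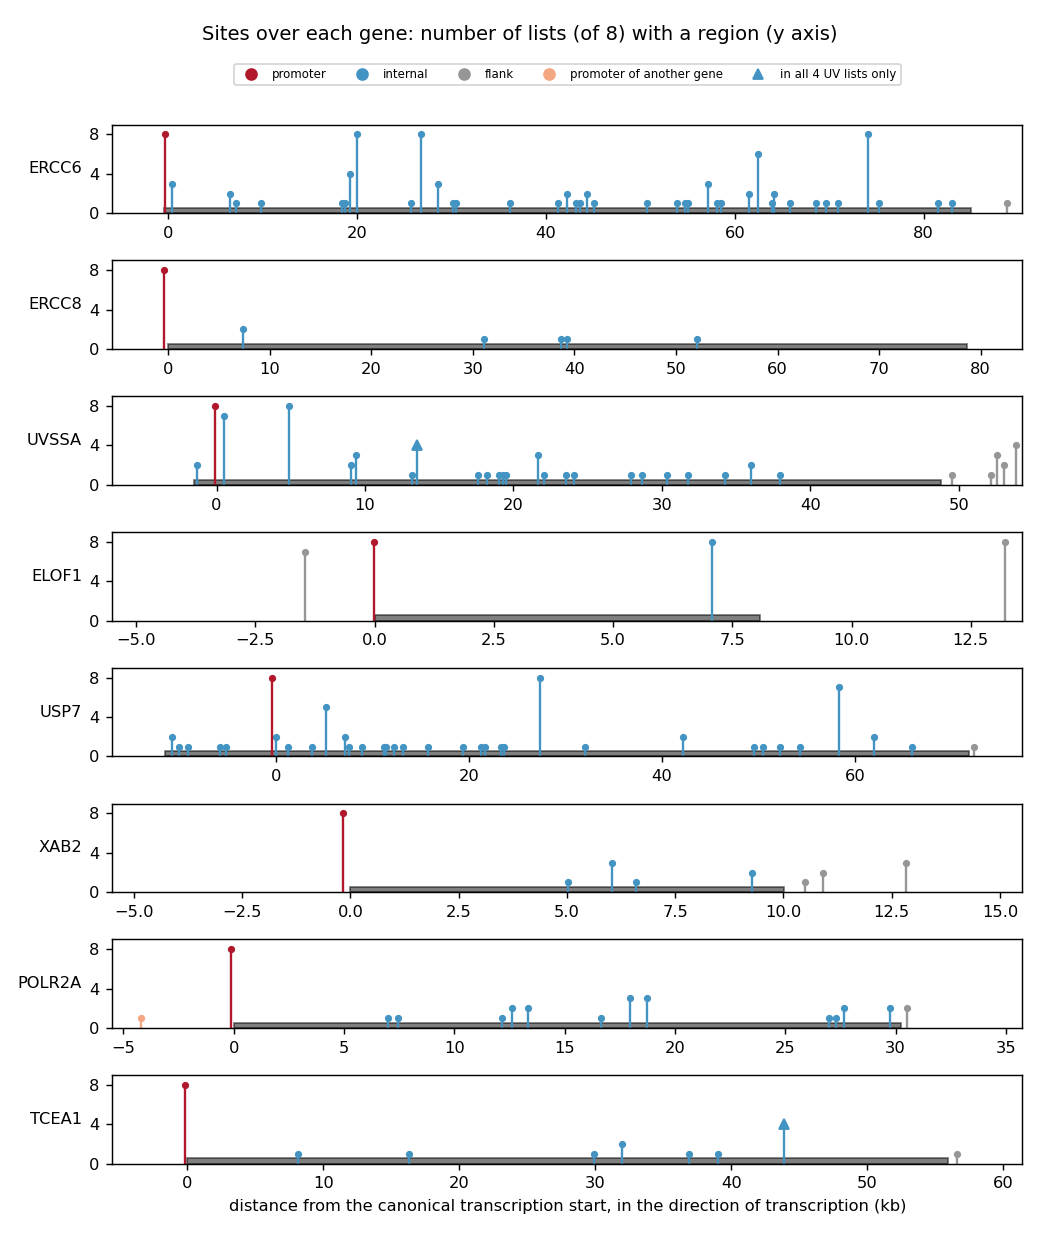
Sites in the window of each gene, by distance from the canonical transcription start in kb (x axis, positive in the direction of transcription) and number of the 8 lists with a region there (y axis). The grey bar is the annotated gene span. All 8 promoters reach 8 lists, most internal sites stand at 1 list, and the triangles mark the UVSSA and TCEA1 sites present in the 4 lists post UV only.

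The density of sites differed between the genes. ERCC6 had 41 sites in its window of 95.4 kb, or 4.30 per 10 kb, and ERCC8 had 6 in a window of 88.6 kb, or 0.677 per 10 kb. UVSSA held 29 sites, USP7 34, POLR2A 15, TCEA1 9, XAB2 8 and ELOF1 4. ERCC8 thus had few listed sites beyond its promoter, while ERCC6, of like length, had many weak sites, 27 of which appeared in 1 list. In all 8 lists there were 4 sites at ERCC6 and 1 at ERCC8, its promoter. No density over all genes is set beside these values.

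Among all protein-coding genes, 59.3% had a promoter site in all 8 lists and 17.6% had none in any list. The median of the mean percentile over the 11834 genes with such a site was 88.3, with quartiles of 77.8 and 95. The promoters of XAB2, ERCC8, TCEA1, UVSSA, ERCC6 and ELOF1 lay above this median, and those of POLR2A and USP7 below it.

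ERCC6, whose start lies at chr10:49539121, had its promoter site at chr10:49538831-49540035. Its percentiles were 93.3 and 95.5 unchallenged and 91.5 and 90.4 post UV in WT, against 95.8 and 96.1 unchallenged and 94.3 and 92.1 post UV in ASH1L-/-. Both genotypes were slightly lower post UV, but the range post UV ran into the unchallenged range. Of the genes with a promoter site, 68.9% had a lower mean percentile.

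The ERCC8 promoter site (chr5:60944851-60946096) also covers the start of the divergent gene NDUFAF2, an assembly factor of mitochondrial complex I, and accessibility of the genes cannot be told apart there. It stood at 95.6 and 97.3 unchallenged and 98.1 and 96.3 post UV in WT, against 98.3 and 90.0 unchallenged and 96.1 and 96.1 post UV in ASH1L-/-. The low value came from replicate 2 of the unchallenged ASH1L-/- cells, the shallowest library.

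The UVSSA promoter site (chr4:1346786-1347396) was at 97.1 and 96.3 unchallenged and 95.8 and 83.5 post UV in WT, against 96.0 and 94.9 unchallenged and 95.1 and 90.7 post UV in ASH1L-/-. The lowest value was that of replicate 2 of WT cells post UV. The same library was lowest at the ELOF1 promoter site (chr19:11558760-11559734, overlapping the span of ZNF627), where the percentiles were 93.3 and 93.3 unchallenged and 89.1 and 77.8 post UV in WT, against 95.9 and 93.9 unchallenged and 89.4 and 95.1 post UV in ASH1L-/-.

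XAB2 had the highest mean percentile of the 8 promoters, 97.3, with 86.2% of genes below it. Its site (chr19:7629375-7630037) also lies within 1 kb of the start of PET100, an assembly factor of cytochrome c oxidase, and its percentiles ran from 95.7 to 99.4 over the 8 lists. The TCEA1 promoter site (chr8:54022164-54023007) ran from 92.7 to 98.3. The values of WT and ASH1L-/- cells overlapped at both.

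POLR2A had a broad promoter site of 1922 bp (chr17:7483302-7485223), which also overlaps the spans of SLC35G6 and ZBTB4. Its summit lay 455 bp downstream of the start, in a coding exon, whereas the other 7 summits lay upstream of their starts. The POLR2A site stood at 89.0 and 84.5 unchallenged and 79.1 and 65.7 post UV in WT, against 89.6 and 79.0 unchallenged and 80.6 and 78.1 post UV in ASH1L-/-. Its mean percentile of 80.7 exceeded that of 30.6% of genes.

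USP7 departed from the other genes. Its promoter site (chr16:8963982-8964612) lies upstream of the canonical start without covering it, with the summit at -476 bp. The site had percentiles of 46.9 and 53.4 unchallenged and 53.2 and 54.5 post UV in WT, against 74.5 and 14.3 unchallenged and 49.9 and 49.7 post UV in ASH1L-/-. Only 1.88% of genes with a promoter site had a lower mean percentile. The deepest and the shallowest library, both of unchallenged ASH1L-/- cells, gave its highest and lowest value. A further site (chr16:8963765-8963948), which covers the canonical start, was in 2 lists, both of ASH1L-/- cells, and was counted as internal. The sequence within 500 bp of this start had a GC content of 80.5%, above that of 99.5% of genes and of a median of 61.0%, and its part in the low percentile was not tested.

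**Figure D2:**
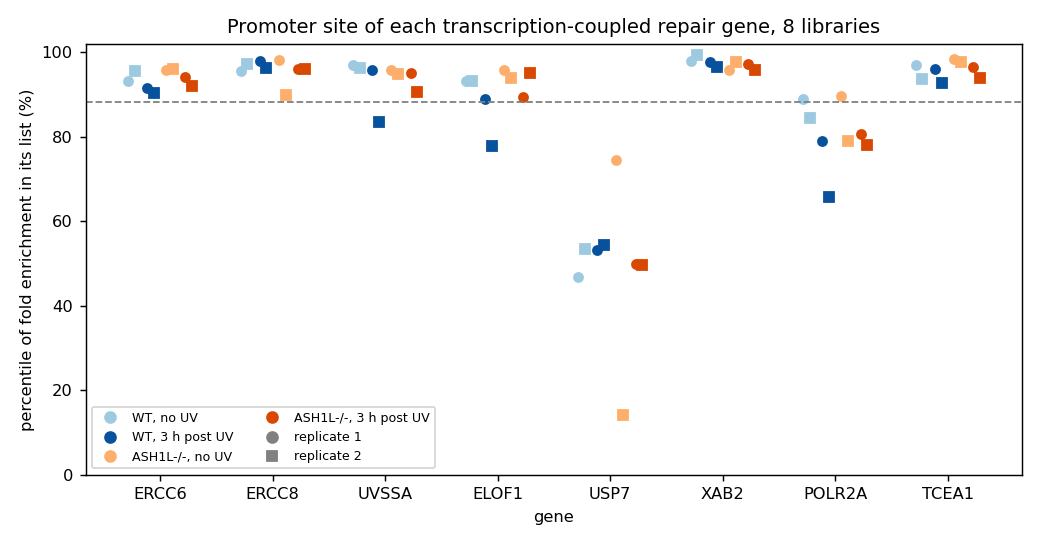
Percentile of fold enrichment in its list (y axis, %) of the promoter site of each gene in each of the 8 libraries, coloured by group, with circles for replicate 1 and squares for replicate 2. The dashed line is the median of 88.3 over all genes with a promoter site in all 8 lists. USP7 lies below the other 7 genes in every group, and its unchallenged ASH1L-/- libraries spread from 14.3 to 74.5.

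Order by mean percentile put XAB2 first (97.3), followed by ERCC8 (96.0), TCEA1 (95.8), UVSSA (93.7), ERCC6 (93.6), ELOF1 (91.0), POLR2A (80.7) and USP7 (49.6). Neighbouring genes from XAB2 to ELOF1 overlapped in their ranges over the 8 libraries. POLR2A (65.7 to 89.6) overlapped with ELOF1 (77.8 to 95.9), and USP7 (14.3 to 74.5) overlapped with POLR2A. The protein-coding promoters whose percentiles over the 8 libraries came nearest to the mean of the 8 genes were those of SMUG1, HNRNPM and MAIP1, at Euclidean distances of 4.05, 4.26 and 4.74 percentile points. The mean of the 8 genes itself ran from 82.2 in replicate 2 of WT cells post UV to 93.0 in replicate 1 of unchallenged ASH1L-/- cells.

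The first comparison asked whether accessibility of these genes differs 3 h post UV. Percentiles were turned into normal scores, which place a rank on a scale of standard deviations, and the 60323 sites with a region in all 8 lists were fitted together with limma. None of the 8 promoters passed an adjusted p of 0.05 and none had an unadjusted p below 0.05, where limma called 5.84% of all sites (2.53% higher and 3.3% lower) and 2.55% of the promoters of protein-coding genes, and 26% of all sites and 24.6% of those promoters had an unadjusted p below 0.05. The UV difference was below 0 at 6 of the 8 promoters, with a median of -0.25, and below 0 at 79.5% of 10507 protein-coding promoter sites, with a median of -0.21, while the median of all sites was -0.08. The lower ranks of the 8 promoters were thus near those of promoters in general. With percentiles taken among the 60323 sites alone, the medians were -0.27 for the 8 promoters and -0.22 for the protein-coding promoter sites.

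The lowest value was that of POLR2A, whose mean percentile was 85.5 ± 4.93 (SD, n = 4) in unchallenged cells and 75.8 ± 6.84 post UV, a difference of -0.36 in normal score (95% confidence interval from -0.75 to 0.03, limma adjusted p = 0.218). Those of ELOF1 (-0.34, from -0.73 to 0.04), UVSSA (-0.34, from -0.78 to 0.09), ERCC6 (-0.26, from -0.58 to 0.07), TCEA1 (-0.24, from -0.61 to 0.13) and XAB2 (-0.20, from -0.58 to 0.17) followed. ERCC8 (0.09, from -0.37 to 0.54) and USP7 (0.15, from -0.57 to 0.86) were above 0. At none of the 8 did the 4 libraries post UV lie apart from the 4 unchallenged ones, a separation found at 1.17% of protein-coding promoter sites in the higher and 20.6% in the lower direction.

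A second scale was the pileup at the summit divided by the mean pileup of the genome, which is not a rank. On it, all 8 promoters were above 0 post UV, with a median log2 difference of 0.41, but so was the median of all 60323 sites, at 0.48. The direction of the promoters therefore depended on the scale, and on this one their median lay below that of all sites. ERCC8 was the promoter that passed the test here, 1 of 8, where 17.2% of all sites and 5.45% of protein-coding promoters were called higher. Its summit reached 31.9 and 47.7 times the genome mean unchallenged and 56.5 and 108 times post UV in WT, against 20.6 and 23.02 times unchallenged and 47.8 and 41.9 times post UV in ASH1L-/-, a log2 difference of 1.02 (limma adjusted p = 0.0423). Within each genotype both libraries post UV were above both unchallenged ones, while the mean percentile of the site differed by 1.34 points. On this scale the fit gave the member sites the same standard error, 0.381. The p therefore follows the size of the difference and not the spread at the site, which for ERCC8 was 63.7 ± 30.4 times the genome mean (SD) post UV.

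There were 7 sites other than promoters in all 8 lists, and limma called none of them after UV, with 1 at an unadjusted p below 0.05. That was the USP7 internal site (chr16:8936160-8936894), which lies in an intron of the canonical transcript, 27395 bp from the canonical start and within 1 kb of an annotated internal start of the gene. Its percentiles were 62.0 and 75.7 unchallenged and 80.3 and 90.4 post UV in WT, against 73.8 and 56.1 unchallenged and 79.1 and 79.0 post UV in ASH1L-/-. All 4 values post UV exceeded all 4 unchallenged ones, which was the case at 5.99% of all sites in this direction and at 12.3% in the other. The difference was 0.49 in normal score (95% confidence interval from 0.07 to 0.91, limma unadjusted p = 0.0258, adjusted p = 0.137, and p = 0.0286 in the exact permutation test, two-sided, the smallest that 4 against 4 libraries allow).

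Whether this site passed depended on the scale. It passed on the log2 fold enrichment scale with quantile normalisation (0.74, limma adjusted p = 0.0209), as pileup over the genome mean (1.16, adjusted p = 0.0182) and with percentiles taken among the 60323 sites alone (0.94, adjusted p = 0.0248). On these scales 7.19%, 17.2% and 7.25% of all sites were called higher, against 2.53% on the normal scores. Over its alternatives that kept all 8 libraries it was above 0 throughout. As pileup over the genome mean, the 4 unchallenged libraries had 5.72, 9.77, 5.79 and 6.47 and those post UV 13.0, 24.7, 14.7 and 11.0. The adjusted p on that scale again rests on a standard error shared between sites, 0.381. The site was also more accessible by rank than the canonical USP7 promoter in 7 of the 8 lists, with a mean percentile of 74.5 against 49.6.

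The other sites present throughout were 3 intronic sites of ERCC6, an intronic site of UVSSA, a site inside ELOF1 and a flanking site of ELOF1. The site inside ELOF1 has its summit outside the canonical transcript and touches an annotated exon. The flanking site (chr19:11545648-11546381), inside the neighbouring gene CNN1, had the highest mean percentile of all sites that were not promoters, 84.8, with a UV difference of 0.07 (limma adjusted p = 0.859). The ERCC6 sites, at 19977, 26823 and 74235 bp from the start, had mean percentiles of 54.5, 67.8 and 54.7 and UV differences of 0.42, 0.25 and -0.43 (limma adjusted p from 0.348 to 0.531). The UVSSA site (chr4:1351837-1352289) differed by -0.06 and the ELOF1 exon site (chr19:11551833-11552471) by 0.24. Their intervals all included 0.

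**Figure D3:**
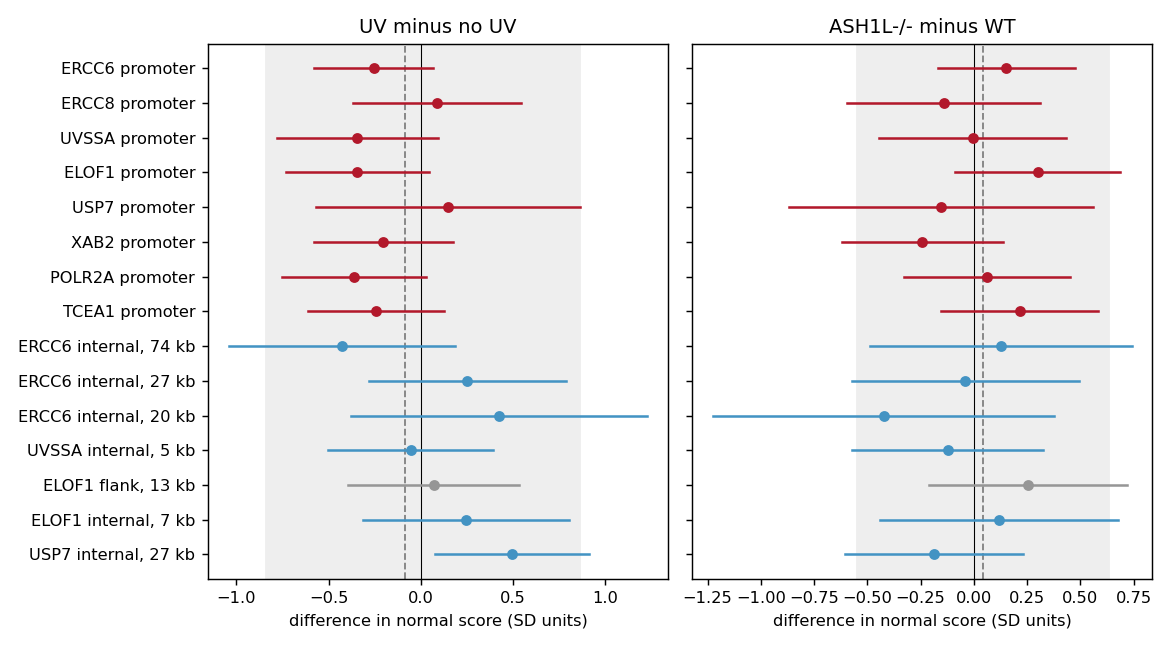
Difference in normal score (x axis, in SD units of the rank scale) for UV minus no UV and for ASH1L-/- minus WT at the 15 sites present in all 8 lists, with 95% confidence intervals from limma. Red marks promoters, blue internal sites and grey the flanking site, with the distance of the summit from the start in kb. The grey band holds the central 95% of all 60323 sites and the dashed line their median. Only the interval of the USP7 internal site for UV leaves out 0.

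Presence of a region needs no common scale of values, but it depends on depth. The lists also reach down to a p of 0.01 of the peak caller, so that it is a lenient criterion. The 4 libraries post UV (mean pileup 2.45 to 2.81) were deeper than the unchallenged ones (1.39 to 2.10) other than replicate 1 of ASH1L-/- cells (5.87). Depth and UV thus cannot be fully told apart in presence. Presence gave 2 sites with a region in all 4 lists post UV and in none of the unchallenged ones, out of 146 sites or 1.37%, where 0.686% of all sites did. No site did the reverse, where 0.0967% of all sites did. By genotype, 4 member sites were gained in both WT libraries post UV and in neither unchallenged WT library (2.74%, against 2.62% of all sites), and 5 in ASH1L-/- cells (3.42%, against 3.18%). These shares are near those of all sites. Lost sites were 0 in WT cells, against 1.18% of all sites, and 3 in ASH1L-/- cells (2.05%, against 1.49%).

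The intronic TCEA1 site (chr8:53978281-53978840) has its summit 43892 bp downstream of the start, in an intron of the canonical transcript, and touches an annotated exon. Post UV it had percentiles of 90.3 and 76.7 in WT and 76.8 and 66.7 in ASH1L-/- cells, from summit pileups of 41, 36, 25 and 18 reads. These were 16.2, 13.5, 10.2 and 6.40 times the genome mean, with the WT libraries above the ASH1L-/- ones. No unchallenged library listed it, including the deepest, replicate 1 of the ASH1L-/- cells. Over the whole genome the unchallenged lists reached down to pileups of 5 to 12 reads, or 2.04 to 3.60 times the genome mean. The limit at this site also depends on the local background, which is unknown for lists without a region. The part of depth in the absence was not tested.

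The intronic UVSSA site (chr4:1360490-1360924), 13595 bp from the start, was weaker. It had percentiles of 45.3 and 51.0 in WT cells post UV and 49.6 and 5.78 in ASH1L-/- cells post UV, from pileups of 11, 18, 14 and 8 reads, or 4.35, 6.73, 5.72 and 2.84 times the genome mean. The lowest of these was within the range at which the unchallenged lists ended, so that absence from those lists and a low signal cannot be told apart.

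**Figure D4:**
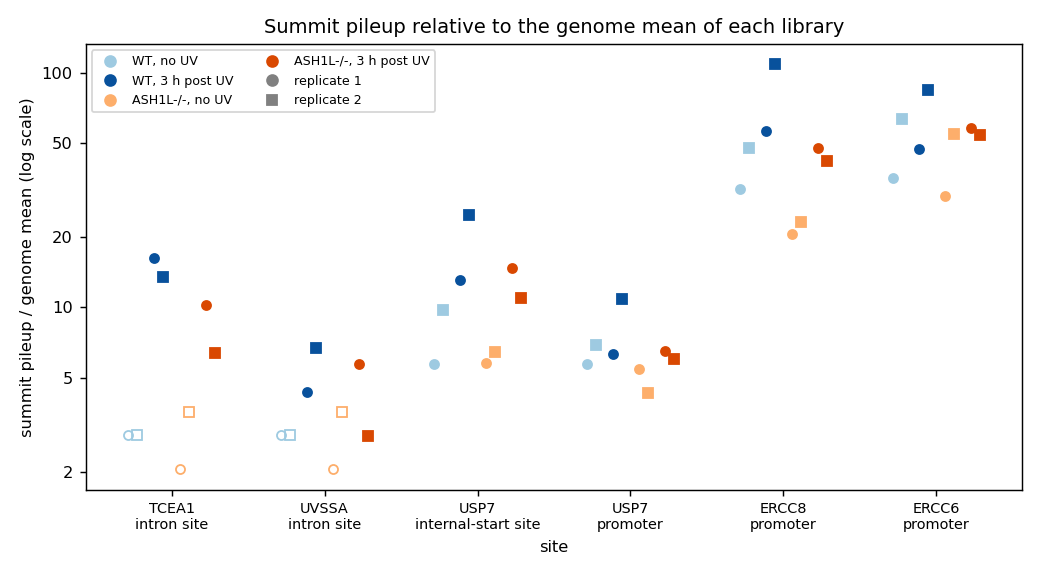
Summit pileup divided by the genome mean of the library (y axis, log scale) at 6 sites of the TCEA1, UVSSA, USP7, ERCC8 and ERCC6 genes, coloured by group, with circles for replicate 1 and squares for replicate 2. Open symbols mark libraries without a region, placed at the lowest value in their list. The TCEA1 intronic site stands at 6.40 to 16.2 post UV and is unlisted without UV, and the USP7 internal site stands at 11.0 to 24.7 post UV against 5.72 to 9.77 without.

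The second comparison asked whether accessibility differs between ASH1L-/- and WT cells. The ASH1L-/- cells came from isolated colonies, in a number that is not stated, so the deletion and differences between clones cannot be told apart. None of the 8 promoters and none of the 7 other sites passed in limma, with 0 at an unadjusted p below 0.05, where 0.00166% of all sites passed and 9.62% had an unadjusted p below 0.05. The promoter differences, ASH1L-/- minus WT, ran from -0.24 at XAB2 (95% confidence interval from -0.62 to 0.14) to 0.30 at ELOF1 (from -0.09 to 0.69), with a median of 0.03 against 0.07 over all protein-coding promoter sites. At no member site did the libraries of the genotypes lie apart, which they did at 2.57% of all sites and 1.84% of promoters with ASH1L-/- higher and at 1.51% and 0.714% with ASH1L-/- lower. No member site had a region in all lists of one genotype and in none of the other, where 0.186% of all sites had this in the ASH1L-/- and 0.0768% in the WT direction. On the scale of pileup over the genome mean none of the promoters or other sites passed in limma either, where 806 of 60323 sites did. There 1 of the 8 promoters was above 0, and 2 had an unadjusted p below 0.05. No share over all sites is given for these counts, so they are not read as a result about the promoters. The median of the 8 was -0.32, as was that of all protein-coding promoter sites, against -0.31 over all sites.

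The difference between the UV responses of the genotypes was also tested. None of the 15 sites passed in limma, with 0 at an unadjusted p below 0.05, and none of all 60323 sites passed, so 0% were called, while 2.91% had an unadjusted p below 0.05. The widest difference among the promoters was that of ELOF1 at 0.31 (from -0.47 to 1.08, limma adjusted p = 0.9999), where the percentile fell by 9.84 points in WT and 2.64 points in ASH1L-/- cells. The intervals spanned more than 1 SD unit at every promoter, so that differences of the size of the UV values themselves were not detectable with 2 libraries a group.

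The number of regions per gene window was compared as a coarser measure. Over all 8 windows there were 44 and 45 regions unchallenged and 37 and 38 post UV in WT, against 47 and 43 unchallenged and 43 and 51 post UV in ASH1L-/-. The whole lists were also shorter post UV in WT, with 178662 and 189651 regions unchallenged and 161647 and 166875 post UV. In ASH1L-/- they held 220783 and 158198 regions unchallenged and 165339 and 199262 post UV. The exact permutation test (two-sided, n = 4 and 4) gave p from 0.143 to 1 for UV and genotype. No p it allows, 0.0286 being the smallest, passed after adjustment for any of the 19970 genes (0%), so the count of genes that pass carries no information. ERCC6 had 13 and 11 regions unchallenged and 8 and 8 post UV in WT, against 13 and 13 unchallenged and 9 and 16 post UV in ASH1L-/-, so that the libraries overlapped because of replicate 2 of the last group. No gene had its 4 libraries post UV apart from the unchallenged ones, where 1.31% of all genes had this in the higher and 1.07% in the lower direction. The same held for genotype, where 1.45% and 1.43% of all genes had it.

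**Figure D5:**
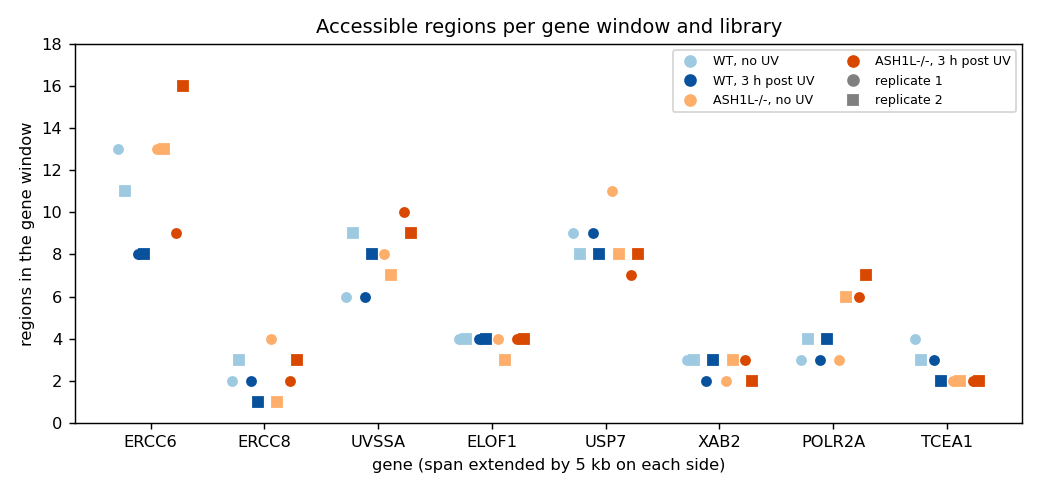
Number of accessible regions (y axis) in the window of each gene, its span extended by 5 kb on each side, in each of the 8 libraries, coloured by group, with circles for replicate 1 and squares for replicate 2. The counts run from 8 to 16 for ERCC6 and from 1 to 4 for ERCC8, which has a window of similar length.

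Other genes of the pathway were compared at their promoters in the same fit. Of the CSA ubiquitin ligase and its cofactors, all 7 genes had a promoter site in all 8 lists, and 1 was called lower post UV, with 5 at an unadjusted p below 0.05, all lower, and a median difference of -0.42. Of all protein-coding promoters, 2.22% were called lower and 22.9% were lower at an unadjusted p below 0.05, with a median of -0.21. It was RBX1, the RING subunit of the ligase, named after its values were seen. Its percentile was 98.3 ± 0.336 (SD, n = 4) in unchallenged cells and 93.7 ± 0.547 post UV, a difference of -0.59 ± 0.14 (SE, limma adjusted p = 0.0437). Since this is a rank, and ranks of promoters were lower post UV in general, it does not say that fewer reads lay there.

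No other RNA polymerase II subunit was called among 11 of 12 genes with such a site (POLR2L lacked one), with 4 at an unadjusted p below 0.05 and a median of -0.27. Of 15 elongation factors 11 had such a site (without CDK9, ELOA, ELOB and TCEA3), with 0 called, 2 at an unadjusted p below 0.05 and a median of -0.23. The 5 genes of polymerase ubiquitylation and extraction gave 0 calls, 2 at an unadjusted p below 0.05 and a median of -0.26. Of all protein-coding promoters, 2.55% were called for UV and 24.6% had an unadjusted p below 0.05, with a median of -0.21. The libraries post UV lay below all unchallenged ones at 4 of 7, 3 of 11, 4 of 11 and 1 of 5 genes of the 4 lists, where they did at 20.6% of all protein-coding promoters. Neither genotype nor the interaction gave a call in any list in limma, with 0 at an unadjusted p below 0.05. Of all protein-coding promoters, 0 were called for either, and 4.31% and 1.59% had an unadjusted p below 0.05.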

How the data were processed

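The data were ATAC-seq peak lists of 8 libraries of U2OS cells, 2 per group, with groups and replicate numbers from the sample titles. Per the labels, reads were trimmed with cutadapt 1.9.1, aligned to hg38 with Bowtie2 2.4.5, filtered, and peaks were called by the authors with MACS2 2.2.7.1 in each library without pooling replicates. Each list reaches down to a p of 0.01, a lenient threshold, so that presence in a list includes weak regions. The deposited columns were a fold enrichment (the ratio of the summit pileup to the local background, each plus 1), p- and q-values that the authors gave as −log10, and a score, not used here. No value was normalised between lists by the authors.

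A region was a distinct interval, represented by its record of highest fold enrichment. Regions overlapping by at least 1 bp were joined into sites, and the rank within the list gave the percentile. Pileup and background were solved from fold enrichment and −log10 p, and 100% of value pairs gave whole reads within 0.01 in −log10 p. The lowest background of a list is the mean pileup of the genome, a relative depth, and absolute read numbers are unknown. Its range, 1.39 to 5.87, limits the weakest regions that a list can hold.

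Sites in all 8 lists were fitted with limma 3.58.1 (R 4.3.3) on normal scores of the percentile, with group means for the 4 groups and Benjamini-Hochberg adjustment over all sites. A UV effect averages the UV differences of both genotypes, and a genotype effect those with and without UV. Exact permutation tests were two-sided over 70 assignments, and their smallest p of 0.0286 cannot pass 0.05 after adjustment over all sites (0.156 for UV and 0.701 for genotype at best), so no count of calls was taken from them. The fit and the pileup recovery were tested on simulated data. Gene models came from GENCODE release 44 and sequences from hg38. Replicates are labelled as biological, and the study describes them as independent experiments.

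The named items were the 8 genes, their promoter sites, other sites in all 8 lists, sites separating the sides completely, the site of highest mean percentile outside promoters and the 3 most similar promoters. Other pathway genes were to be given as counts. Members, lists and rules were chosen with earlier results of these data known. Alternatives were other scales, thresholds, overlaps, promoter definitions, windows, a replicate block and leaving out each library.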

Additional observations from a re-analysis of the deposited data

Results flagged for a closer look

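Over the 15 sites in all 8 lists and the 2 sides of UV, 30 sets of 4 libraries were searched for a library far from the other 3, by Dixon's ratio and its 95% critical value. Chance gives such a gap in about 1 of 20 sets, and 4 of the 30 had one. At the ERCC8 promoter post UV, replicate 1 of WT cells was at the percentile 98.1 and the others between 96.1 and 96.3. At the UVSSA intronic site chr4:1351837-1352289 without UV, replicate 1 of ASH1L-/- cells, the deepest library, was at 38.4 and the others between 67.6 and 69.7. At the USP7 internal site post UV, replicate 2 of WT cells was at 90.4 and the others between 79.0 and 80.3. At the POLR2A promoter post UV, the same library was at 65.7 and the others between 78.1 and 80.6.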

How the results depend on the processing

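Of 203 alternative values that kept all libraries, 179 had the same direction and call as in the report, or moved by less than the limits set. These leave out the exact permutation tests, which could not pass, and an overlap of 50% of the region, which gave identical values. Most others came from the pileup over the genome mean, a scale on which the median of all sites moved by 0.48 for UV and -0.31 for genotype. There 1 promoter (ERCC8, 1.02) passed for UV in place of 0, and UV differences turned positive at the promoters of ERCC6 (0.44), UVSSA (0.18), ELOF1 (0.53), XAB2 (0.31), POLR2A (0.20) and TCEA1 (0.48) and at the UVSSA site chr4:1351837-1352289 (0.57, and 0.10 with regions of q-value below 0.05). Genotype differences there turned negative at the promoters of ERCC6 (-0.21), ELOF1 (-0.13) and TCEA1 (-0.36). At the USP7 promoter the UV difference was -0.12 with sites in at least 4 lists. Of the other sites, 1 passed for UV in place of 0 on the log2 fold enrichment and pileup scales and with percentiles among the sites in all 8 lists, an alternative chosen after seeing the data. Another 1 passed with sites in at least 4 lists, the TCEA1 site, which entered there through the lists post UV alone, so that its call repeats its presence pattern. It was 1 of 16 other member sites tested in that setting, where 9395 of all 123380 sites were called higher. The count of sites separating UV was 1 in place of 2 with q-values below 0.05 and where a region had to cover 50% of the site (also chosen after seeing the data), the TCEA1 site in both cases, and 0 in the top quartile of each list. No share over all sites is given for these settings. The cause of these changes was not tested.

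Without 1 library at a time, no promoter or other site was called for UV, genotype or the interaction. Over all sites the UV calls, 3520 with all libraries, numbered 2 to 738 without 1 of the libraries post UV and 1639 to 3824 without 1 of the unchallenged ones, so that the former leave little to call. With a library left out, the sites separating UV numbered 2 to 3. Those separating the genotypes numbered 0 to 1, with 1 without replicate 1 or replicate 2 of the unchallenged ASH1L-/- cells or replicate 2 of ASH1L-/- cells post UV. Leaving a library out makes this condition easier to meet, and no share over all sites is given beside these counts. Ranges that crossed 0 were, for UV, -0.051 to 0.90 at the ERCC6 site 19977 bp from the start, -0.12 to 0.30 at the ERCC8 promoter, -0.25 to 0.14 at the UVSSA site above, -0.11 to 0.25 at the ELOF1 flanking site and -0.29 to 0.58 at the USP7 promoter, and, for genotype, -0.35 to 0.066 at ERCC8, -0.20 to 0.18 at UVSSA, -0.59 to 0.28 at USP7 and -0.051 to 0.18 at POLR2A. The USP7 internal site stayed between 0.37 and 0.61.

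Replicate numbers did not pair the libraries, since deviations of libraries with the same number correlated between -0.11 and 0.14 in the 6 pairs of groups. With a replicate block, 2641 sites were called for UV in place of 3520, and 0 of the 8 promoters and 0 of the 7 other sites for UV, genotype or the interaction. With 2 libraries a group, a rank scale and no reads, weak sites near the end of a list are the least certain.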
